A study of Saccharomyces cerevisiae with 36 samples.

Results

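The frames described here are 65 open reading frames of Saccharomyces cerevisiae that carry a systematic name only and whose microarray signal in log phase was far lower in the wild strains YPS163 and M22 than in the laboratory strain DBY8268. They were chosen by their log-phase ratios, as the rows without a standard gene name whose mean log2 ratio was below -4 both for YPS163 over DBY8268 and for M22 over DBY8268, with at least 2 values in each. They make up 65 of the 6295 rows of the table and 65 of the 1073 rows that have no standard name. Of the 65, 64 are frames of Ty elements, as read from their systematic names and from coding lengths and shared starts in the RefSeq gene table, which itself names no product, and the remaining one, YDR271C, is not. The 6 log-phase arrays of YPS163 and M22 supplied the values that chose the frames, so those values are described below without a test. The ethanol arrays and the hap1D arrays were not used in the choice. The labels do not say whether the unstressed RNA on the ethanol arrays came from the cultures that supplied the log-phase arrays.

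Ty elements are the long terminal repeat retrotransposons of budding yeast, which copy themselves through an RNA intermediate inside virus-like particles. Each intact element holds a short frame, TYA, which encodes the Gag-like particle protein, and a long frame, TYA-TYB, which is read by a programmed frameshift and encodes the protease, integrase and reverse transcriptase as well. Ty1 and Ty2 are the close relatives among the families and Ty1 is the most abundant in laboratory strains, while many non-laboratory strains carry few full-length copies. Because copies of a family are nearly identical and the short frame lies inside the long one, a spot on an array cannot be tied to 1 copy, and frames of a class share their target rather than serving as independent measurements. A smaller number of copies and less RNA per copy cannot be told apart in these ratios.

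The series compared RNA from cultures grown in YPD, a rich medium, at 30 °C with 36 microarrays, each of which held 2 RNAs under different dyes, and the dyes were exchanged on the arrays numbered 2. Ethanol ratios set cells after 30 min in 5% ethanol against unstressed cells of the same strain, on 3 arrays each for the wild strains YPS163 and M22 and the laboratory strain DBY8268 (the S288c reference of the design text), and for the mutants msn2D and hap1D and the unmutated YPS163 MATa (mating type a). The hap1D labels place that mutant in YPS163 MATa, whereas for msn2D the genotype label gives YPS163 MATa and the titles name YPS163 alone, so the msn2D background is not settled and msn2D is set against both strains. Log-phase ratios, 3 arrays each, set YPS163 and M22 over DBY8268 and hap1D over YPS163 MATa, and 1 array per strain added 15, 45 and 60 min of ethanol for YPS163, M22 and DBY8268. Array 3 of YPS163 MATa in ethanol was left out because its column appears to sit 1 row out of place (correlation across rows with the mean of arrays 1 and 2 of 0.164 as deposited and 0.747 after a move by 1 row), which leaves n = 2 there. The submitters call the 30 min and log-phase arrays biological triplicates and each later or earlier time a single replicate.

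HAP1 encodes a haem-responsive transcription factor and MSN2 a general stress transcription factor, and both mutants are read from their names as deletions. HAP1 stood at log2 ratios of -3.90 and -3.04 on the 2 log-phase arrays of hap1D that gave it a value, after these columns had been turned to hap1D over YPS163 MATa, and it had no value on the 3 hap1D ethanol arrays. The columns were turned so that HAP1 is negative, so its sign is no check of their direction. MSN2 had no value on the 3 msn2D ethanol arrays, against 0.28 and 0.05 in YPS163 MATa. Arrays carried 4981 to 6093 values, array medians ran from -0.08 to 0.17, and replicate arrays correlated across rows at 0.805 to 0.947 in the ethanol groups, at 0.674 to 0.813 for YPS163 over DBY8268 and at 0.184 to 0.645 for hap1D over YPS163 MATa. Base and direction of the ratios are read from the values, since the labels state neither, and are likely but not certain. The words rose, fell and differed stand for an adjusted p under 0.05 in limma, a linear model fitted to every row of the table. An error given as SD is the spread of the arrays of 1 group, and one given as SE is the standard error of a fitted difference.

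By class, the 65 frames were 28 short Ty1 frames, 26 long Ty1 frames, 2 short Ty2 frames, 7 long Ty2 frames, 1 long Ty frame whose family was not assigned (YLR035C-A, with a coding length of 3468 bases in the RefSeq table) and YDR271C. In 25 cases both frames of one element, sharing their first base, were among the 65. The frames lay on 14 chromosomes, with 12 on chromosome IV and 8 each on chromosomes XII and XIII.

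Of the short Ty1 frames, 23 had their long partner among the 65: YBL005W-A, YBR012W-A, YDR098C-A, YDR261C-C, YDR316W-A, YDR365W-A, YER137C-A, YER159C-A, YGR161C-C, YHR214C-C, YJR026W, YJR028W, YLR157C-A, YLR227W-A, YML040W, YML045W-A, YMR046C, YMR051C, YNL054W-A, YOL103W-A, YPR137C-A, YPR158C-C and YPR158W-A. The other short Ty1 frames were YAR010C, YDR170W-A, YGR027W-A, YGR038C-A and YLR256W-A, the last of which lies beside HAP1, where S288c derivatives are known for a Ty1 insertion. Of the short Ty1 frames, 27 have a coding length of 1323 bases and YHR214C-C one of 1437.

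The long Ty1 frames were YAR009C (coding length 3591 bases, the TYB part beside YAR010C), YBL005W-B, YBR012W-B, YDR098C-B, YDR261C-D, YDR316W-B, YDR365W-B, YER138C, YER160C, YGR161C-D, YHR214C-B, YJR027W, YJR029W, YLR157C-B, YLR227W-B, YML039W, YML045W, YMR045C, YMR050C, YNL054W-B, YNL284C-B, YOL103W-B, YPL257W-B, YPR137C-B, YPR158C-D and YPR158W-B, most of them (20) with a coding length of 5269 bases. The short Ty2 frames were YFL002W-B and YLR410W-A, at 1317 bases each. The long Ty2 frames were YCL019W, YDR034C-D, YDR210W-B, YDR261W-B, YFL002W-A, YGR161W-B and YLR410W-B, at 5314 bases each. YDR271C is listed in the table without an entry in the RefSeq table and by its systematic name neighbours CCC2, which encodes a copper-transporting ATPase; CCC2 itself had log-phase means of -2.18 ± 1.04 for YPS163 and -1.82 ± 0.49 for M22 (SD, n = 3).

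In log phase the short Ty1 frames were the lowest class in both wild strains. Their mean ratios had a median of -6.40 for YPS163 over DBY8268 and of -7.58 for M22 over DBY8268. Each of the 28, which share their target, had a higher mean ratio for YPS163 than for M22. The class medians of arrays 1, 2 and 3 were -7.42, -5.81 and -6.22 for YPS163 and -7.86, -7.28 and -7.69 for M22. YPS163 array 1 thus lay within the M22 range. YPR158C-C held the lowest mean of all, at -7.13 for YPS163 and -7.97 for M22. Among the 23 Ty1 elements with both frames present, the short frame was lower than the long one in 20 for YPS163 and in 22 for M22.

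Long Ty1 frames formed separate ranges in M22. In 19 of the 26 the M22 ratio lay between -7.33 and -6.56, with a median of -6.85, and in 7 it lay between -5.27 and -4.80, with a median of -5.14. The 7 were YDR098C-B, YDR261C-D, YDR365W-B, YJR027W, YLR227W-B, YNL054W-B and YPR137C-B, and no long Ty1 frame lay between these ranges. For YPS163 the ranges overlapped, at -5.66 to -5.27 for the 19 and -5.92 to -4.90 for the 7. The 7 long Ty2 frames stood at -5.34 to -4.99 in YPS163 and at -5.23 to -4.79 in M22, beside the upper 7 long Ty1 frames. The split is a description of values seen in these arrays and was not tested. The family of the 7 was assigned by hand from systematic name and coding length and was not checked against a Ty annotation, and which copies their spots detect was not examined.

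**Figure D1:**
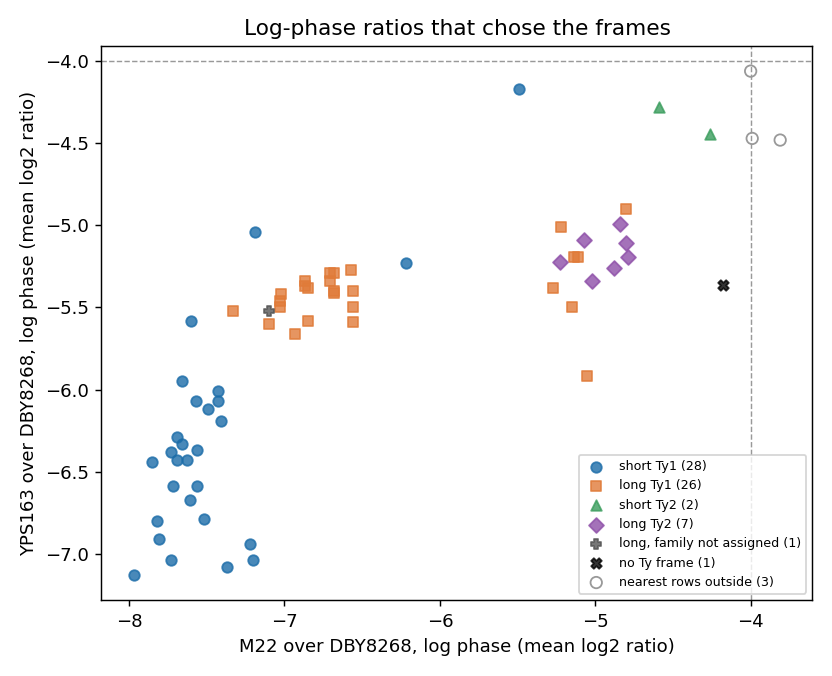
Mean log2 ratio in log phase of M22 over DBY8268 (horizontal axis) against YPS163 over DBY8268 (vertical axis) for the 65 frames by class, with the 3 nearest unnamed rows outside the thresholds of -4 (dashed lines) as open circles. Short Ty1 frames sit lowest in M22 and 7 of the long Ty1 squares lie beside the long Ty2 diamonds, at -5.27 to -4.80 in M22.

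Per array, the frames sat far below 0 throughout. Over the 65, the medians of the YPS163 arrays 1, 2 and 3 were -5.82, -5.60 and -5.25, and those of the M22 arrays were -7.55, -6.75 and -6.44. No value of any of the 65 was above 0 on these 6 arrays. YML039W had the largest SD over the M22 arrays (1.59), with -5.68, -5.57 and -5.30 in YPS163 and -9.15, -6.68 and -6.17 in M22. YLR256W-A, beside HAP1, had -7.28, -5.21 and -6.37 in YPS163 and -7.79, -7.26 and -8.03 in M22, within the range of its class.

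Nearest to the threshold on the inside were YDR170W-A, whose YPS163 mean was -4.17, YDR271C, whose M22 mean was -4.18, and YFL002W-B, whose M22 mean was -4.26. The nearest unnamed rows outside were YDR034C-C, a short Ty2 frame with an M22 mean that rounds to -4, YGR038C-B, a long Ty1 frame with -3.99, and YCL020W, a short Ty2 frame with -3.81. All of these outside rows are Ty frames too. YGR038C-B had -1.98, -5.08 and -4.91 in M22 and -2.81, -5.44 and -5.16 in YPS163, so array 1 was the high one in both strains.

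The table holds 89 frames of the Ty1 to Ty5 families, so 25 of them were not chosen. Of 60 Ty1 frames, 54 were chosen, 4 had under 2 values and 2 were above the threshold. Of 18 Ty2 frames, 9 were chosen, 2 had under 2 values and 7 were above the threshold; those 7 had M22 means of -4 to -2.83 and YPS163 means of -4.76 to -2.90. None of the 3 Ty3, 5 Ty4 and 2 Ty5 frames was chosen. The unchosen Ty frames with the highest mean of both log-phase ratios were YCL075W, a Ty5 frame at 0.18 in YPS163 (n = 2) and 0.32 in M22 (1 array), and the long Ty3 frames YIL082W-A, at 1.83 in YPS163 and -1.36 in M22, and YGR109W-B, at 1.80 in YPS163 and -1.56 in M22. The Ty3 frames thus stood on opposite sides of 0 in the 2 wild strains.

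The same thresholds were met by 3 named genes. ASP3-3 and ASP3-4, asparaginase genes, stood at -6.43 and -6.20 in YPS163 and at -6.88 and -7.20 in M22, with n = 2 each, and SPL2, a phosphate starvation gene, at -4.28 in YPS163 and -5.33 in M22. The near-identical ASP3-1 and ASP3-2 stood at -5.29 and -4.84 in YPS163 (n = 2 each) and at -8.33 and -6.65 on the single M22 array that gave them a value.

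Values were missing more often for these frames in the wild strains than in DBY8268. On the 30 min ethanol arrays the 65 frames lacked a value on 27.2% of spots in YPS163 and 22.6% in M22, against 0.513% in DBY8268, while over all rows the shares were 16.7%, 13.4% and 11.4% in the same order of strains. Short Ty1 frames lacked a value on 59.5% of spots in YPS163 and 40.5% in M22, against 1.19% in DBY8268. Long Ty2 frames lacked none in these 3 strains. A frame was tested only where at least 2 arrays in each group gave a value, which is why fewer than 65 were tested in most contrasts. Short Ty1 results in the wild strains rest on the frames that still gave a value.

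In YPS163, ethanol raised nearly every frame that could be tested. Of the 65, 46 were tested and 43 rose, against 30.5% of all 5324 rows tested. None fell, against 30.0% of all rows. The median ratio was 2.13, against 0.02 over all rows. All 26 long Ty1 frames rose, with a median of 2.54, and so did the 7 long Ty2 frames, at 1.92 to 2.14, and both short Ty2 frames, at 1.72 and 1.95. Of 28 short Ty1 frames only 9 were tested and 6 of those rose, while YBR012W-A (-1.25), YER137C-A (-1.18) and YDR316W-A (0.85), each with n = 2, did not pass (limma, adjusted p = 0.0524, 0.0673 and 0.0542).

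Among frames with 3 values, the highest YPS163 means belonged to long frames. On array 1 alone short Ty1 frames reached 3.68 (YPR158C-C, with no value on the other arrays), against at most 3.04 for long Ty1 frames. YPR158C-D gave 3.04, 2.45 and 2.92, which averages 2.80 ± 0.31 (SD, n = 3) and is a 6.98-fold rise (limma, adjusted p = 2.45e-10). YML039W gave 2.95, 2.45 and 2.94, and YLR035C-A, the long frame without an assigned family, 3.19, 2.23 and 2.84. All 3 arrays were clearly above 0 for each of these long frames.

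The lowest YPS163 ratios among frames with 3 values were those of YDR170W-A, at 0.83, 0.82 and 1.11, YBL005W-A, at 1.11, 0.81 and 1.12, and YFL002W-B, at 1.78, 1.40 and 1.97. These also rose (limma, adjusted p = 0.037 for YDR170W-A, the weakest of them). The YDR170W-A call was lost in 5 of the alternative settings, with the replicate block (adjusted p = 0.0719), with arrays scaled to a common spread (0.255) and without any 1 of the YPS163 arrays (0.0816 to 0.137). YDR170W-A and YBL005W-A are short Ty1 frames, and YFL002W-B is a short Ty2 frame.

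The largest ethanol ratios of these frames were seen in M22. Of 53 tested, 41 rose, against 32.2% of all 5501 rows tested. None fell, against 29.8% of all rows. The median was 2.94, against 0.03 over all rows. All 25 tested long Ty1 frames rose, at 1.22 to 4.51, as did the 7 long Ty2 frames, at 4.23 to 4.55, and both short Ty2 frames, at 4.46 and 4.65. Of 17 short Ty1 frames tested, 5 rose and 12 did not pass.

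YLR410W-A, a short Ty2 frame, gave 4.59, 4.96 and 4.39 in M22, a mean of 4.65 ± 0.29 (SD, n = 3) and a 25.0-fold rise (limma, adjusted p = 1.79e-10). YDR210W-B, a long Ty2 frame, gave 4.85, 4.61 and 4.19, and YNL054W-B, a long Ty1 frame of the upper log-phase range, 4.81, 4.44 and 4.27. Every one of these arrays was above 4. Lowest among frames with 3 values were short Ty1 frames. YER137C-A gave -0.94, -0.29 and -1.11, YGR027W-A gave -0.77, 0.62 and -1.12, and YER159C-A gave -0.82, 0.77 and -0.47. None of these passed (limma, adjusted p = 0.137, 0.317 and 0.662).

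The ethanol ratios, which the choice did not use, are given here for the same sets of long Ty1 frames. The 7 frames of the upper log-phase range had M22 ethanol ratios of 4.19 to 4.51, beside 4.23 to 4.55 for the long Ty2 frames, while the other 18 tested ran from 1.22 to 4.25 with a median of 2.76, so the sets overlapped, with YML045W (4.25) above YDR365W-B (4.19). In YPS163 the 7 ran from 1.87 to 2.17 and the long Ty2 frames from 1.92 to 2.14, against 2.18 to 2.80 for the other 19. In DBY8268 they stood at 0.77 to 1.26, beside 1.01 to 1.41 for long Ty2, against 0.25 to 0.51 for the other 19. The 7 and the other long Ty1 frames did not overlap in DBY8268. In YPS163 the means of the sets met, at 2.17 and 2.18, a step far below the spread between arrays (SD 0.54 for YER160C, at 2.18). In all 3 strains the range of the 7 overlapped that of the long Ty2 frames. These sets were formed after the values had been seen and the differences were not tested.

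**Figure D2:**
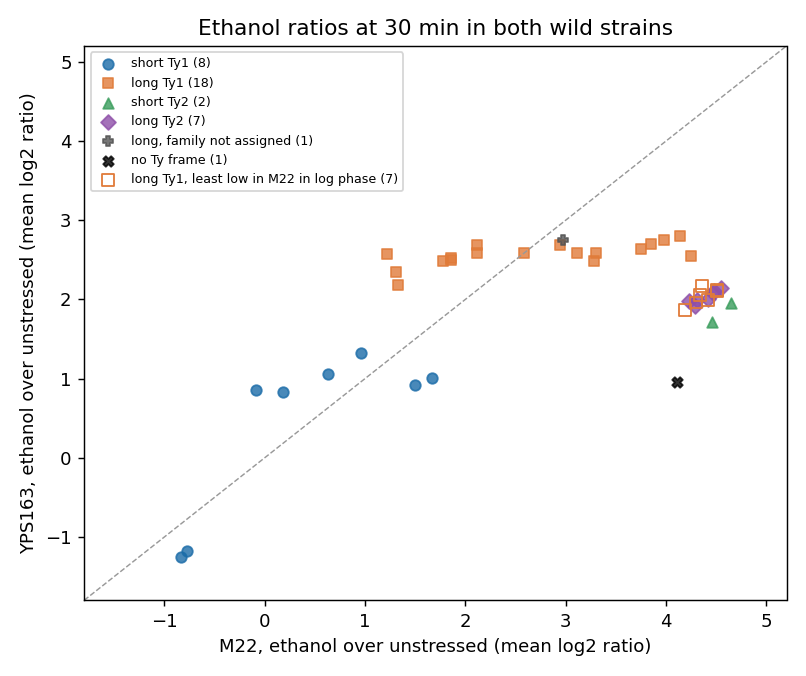
Mean log2 ratio after 30 min in ethanol in M22 (horizontal axis) against YPS163 (vertical axis) for the frames with at least 2 values in each, by class; open squares are the 7 long Ty1 frames of the upper log-phase range and the dashed line marks equal ratios. The open squares lie among the long Ty2 diamonds, at 4.19 to 4.51 in M22 and 1.87 to 2.17 in YPS163, while the other long Ty1 squares spread along a YPS163 ratio of 2.18 to 2.80.

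In DBY8268 the Ty2 frames rose and most Ty1 frames had ratios near 0. All 65 were tested and 21 rose, a share of 32.3% that is near the 28.6% of all 5632 rows tested. None fell, against 31.1% of all rows. Both short Ty2 frames and all 7 long Ty2 frames rose, as did YDR271C at 0.79. Of the 26 long Ty1 frames 11 rose, at 0.35 to 1.26, and the 7 of the upper log-phase range, whose Ty1 label was assigned by hand as above, were among them. None of the 28 short Ty1 frames passed at an adjusted or an unadjusted p of 0.05, with means of -0.12 to 0.40.

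Of the 6 highest DBY8268 ratios, 5 belonged to Ty2 frames. YLR410W-A gave 2.23, 3.20 and 2.83, a mean of 2.75 ± 0.49 (SD, n = 3) and a 6.74-fold rise (limma, adjusted p = 3.06e-07), and YFL002W-B gave 2.35, 3.00 and 2.63. The long Ty2 frames YLR410W-B (1.43, 1.41 and 1.40), YDR210W-B (1.38, 1.32 and 1.38) and YDR261W-B (1.20, 1.29 and 1.29) varied little between arrays. YDR365W-B, a long Ty1 frame, gave 1.19, 1.36 and 1.23. The short Ty2 frames thus stood above the long ones in DBY8268, while in M22 both kinds were close together.

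The lowest DBY8268 ratios were all of short Ty1 frames. YDR170W-A gave -1.0, 0.60 and 0.05 and YBL005W-A gave -0.65, 0.55 and 0.55. YDR098C-A (-0.28, 0.50 and 0.32), YGR038C-A (-0.31, 0.41 and 0.47), YMR046C (-0.45, 0.51 and 0.54) and YGR027W-A (-0.17, 0.48 and 0.35) followed the same pattern. In each, array 1, which also belongs to the time course, was below 0 and the other arrays above it. Over all short Ty1 frames the medians of arrays 1, 2 and 3 were -0.09, 0.49 and 0.51, and over long Ty1 frames -0.04, 0.56 and 0.84, whereas long Ty2 frames had 1.17, 1.29 and 1.29. Of the 65 frames, 24 rose without array 1 and 15 without array 2 or 3.

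**Figure D3:**
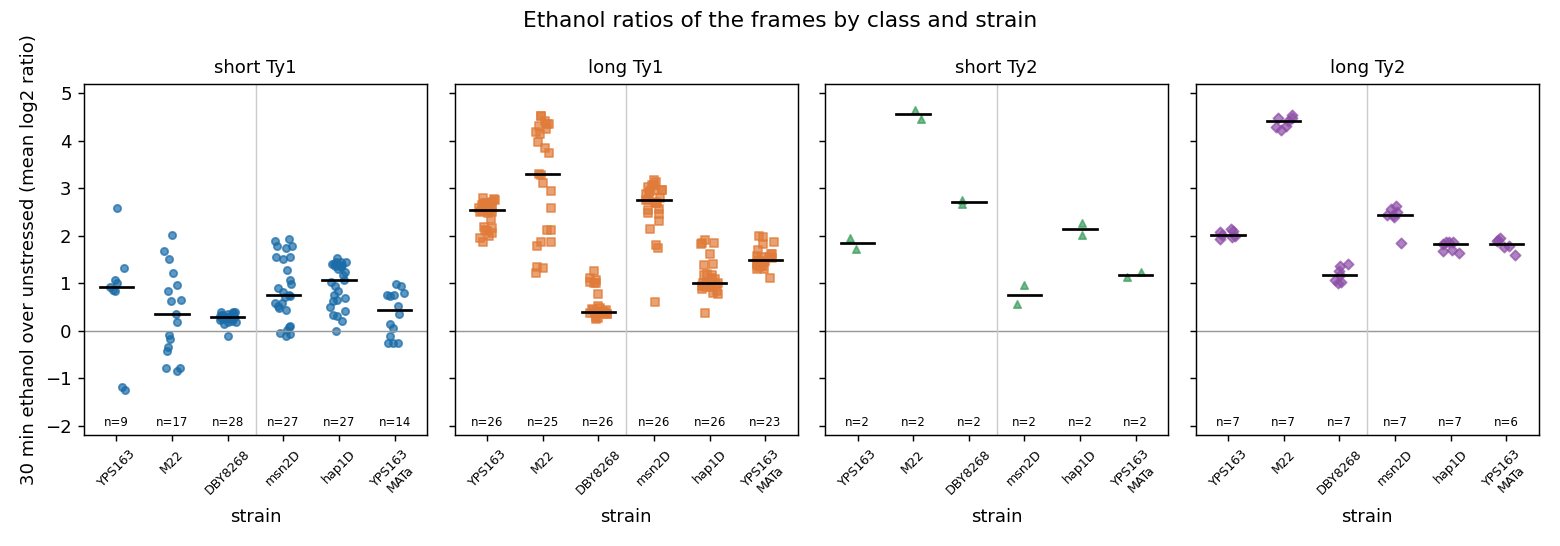
Mean log2 ratio after 30 min in ethanol (vertical axis) of the frames with at least 2 values, by class (panels) and strain (horizontal axis), with 1 point per frame, the median as a black bar and the number of frames as n. Long Ty2 frames sit at 4.23 to 4.55 in M22, above 1.92 to 2.14 in YPS163 and 1.01 to 1.41 in DBY8268, and short Ty1 frames lie near 0.29 in DBY8268.

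The M22 ratio exceeded that of DBY8268 for most frames. Of 53 frames tested for M22 minus DBY8268, 36 were higher in M22, against 9.42% of all 5443 rows tested, and none was lower, against 2.88%. The median difference was 1.89, against 0.09 over all rows. The 36 comprised 23 of 25 long Ty1 frames, all 7 long Ty2 frames, both short Ty2 frames, YLR035C-A, YDR271C and 2 of 17 short Ty1 frames, YBL005W-A and YDR170W-A. With arrays scaled to a common spread 23 of the 53 differed. M22 and YPS163 are compared with the same DBY8268 arrays, so their differences from DBY8268 are not independent. Same-numbered arrays of the 3 strains also deviated together, which the fit behind these differences did not use.

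YML045W, a long Ty1 frame, gave 4.42, 4.39 and 3.93 in M22, against 0.09, 0.48 and 0.86 in DBY8268, a difference of 3.77 ± 0.26 (SE; limma, adjusted p = 3.68e-09). YPR158C-D gave 4.44, 4.46 and 3.53 in M22, against 0.02, 0.64 and 0.87 in DBY8268, and YHR214C-B gave 4.16, 4.48 and 3.31 in M22, against -0.03, 0.52 and 0.83 in DBY8268. For all of them every M22 array was above every DBY8268 array. The next differences belonged to YDR261C-D (3.53 ± 0.40), YNL054W-B (3.50 ± 0.21) and YDR098C-B (3.49 ± 0.25), long Ty1 frames of the upper log-phase range. Long Ty2 frames differed by 2.97 to 3.41 and short Ty2 frames by 1.80 and 1.89.

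The YPS163 ratio also exceeded that of DBY8268 for most frames tested. Of 46 frames tested for YPS163 minus DBY8268, 34 were higher in YPS163, against 10.5% of all 5300 rows tested, and none was lower, against 5.58%. The median difference was 1.10, against 0.06 over all rows. The 34 were 25 of 26 long Ty1 frames, the 7 long Ty2 frames at 0.66 to 1.03, YLR035C-A and 1 of 9 short Ty1 frames, YMR046C. The short Ty2 frames stood lower in YPS163, at -0.80 ± 0.43 for YLR410W-A and -0.94 ± 0.37 for YFL002W-B (SE), without passing (limma, adjusted p = 0.23 and 0.0885). With arrays scaled to a common spread 7 of the 46 differed.

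YBR012W-B, a long Ty1 frame, gave 2.67, 2.58 and 2.81 in YPS163, against -0.47, 0.62 and 0.67 in DBY8268, a difference of 2.41 ± 0.45 (SE; limma, adjusted p = 0.000839). YBL005W-B gave 2.31, 2.46 and 2.94 in YPS163, against -0.47, 0.57 and 0.64 in DBY8268, and YMR046C gave 2.39 and 2.79 in YPS163, against -0.45, 0.51 and 0.54 in DBY8268. The groups did not overlap for any of them. YML039W, YLR035C-A and YHR214C-B differed by 2.40 ± 0.47, 2.37 ± 0.42 and 2.31 ± 0.41 (SE).

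Between the wild strains, every Ty2 frame had a smaller ethanol ratio in YPS163 than in M22. Of 44 frames tested for YPS163 minus M22, 20 were lower in YPS163, against 4.17% of all 5254 rows, and 1 was higher, against 2.15%. The 20 were all 7 long Ty2 frames, at -2.41 to -2.24, both short Ty2 frames, YDR271C and 10 of 25 long Ty1 frames, which included the 7 of the upper log-phase range and YDR316W-B, YML045W and YPR158C-D. None of 8 short Ty1 frames passed at an adjusted or an unadjusted p of 0.05.

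YFL002W-B gave 1.78, 1.40 and 1.97 in YPS163, against 4.44, 4.62 and 4.31 in M22, a difference of -2.74 ± 0.37 (SE; limma, adjusted p = 3.42e-05). YFL002W-A, the long frame of the same element, gave 2.17, 1.60 and 2.26 in YPS163, against 4.66, 4.33 and 4.27 in M22, and YLR227W-B, a long Ty1 frame, gave 2.09, 1.62 and 2.27 in YPS163, against 4.78, 4.24 and 4.24 in M22. No YPS163 array reached the lowest M22 array in these frames. YLR410W-A and YDR210W-B differed by -2.70 ± 0.43 and -2.41 ± 0.22 (SE).

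YBL005W-B was the frame that was higher in YPS163, with 2.31, 2.46 and 2.94, against 0.82 and 1.62 in M22 and no value on M22 array 2. Its difference was 1.35 ± 0.30 (SE; limma, adjusted p = 0.00805). YDR271C, the row that is no Ty frame, gave 1.69 and 0.24 in YPS163, against 4.13, 4.42 and 3.77 in M22, a difference of -3.14 ± 0.43 (SE; limma, adjusted p = 7.65e-05). Its M22 ratio was close to those of the long Ty2 frames, and its neighbour CCC2 stood at 1.01 ± 0.49 in YPS163 and 1.42 ± 0.23 in M22 (SD, n = 3).

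Within an element, the short Ty1 frame had the lower ethanol ratio in most pairs whose frames both gave at least 2 values. In these pairs the short one was below the long one in 7 of 8 elements in YPS163 (the other was level to 2 decimals), in 12 of 13 in M22 and in 22 of 23 in DBY8268. In YPS163 only 8 of the 23 elements could be compared, because the other short frames gave fewer values. On YPS163 array 1 those short frames went both ways. YPR158C-C stood at 3.68, above every long Ty1 frame (at most 3.04), and YHR214C-C at 1.93, below its partner at 2.83. Both Ty2 elements with both frames present showed the reverse in M22 and DBY8268, where the short frame was higher, and the same order as Ty1 in YPS163. In msn2D the short Ty1 frame was lower in 22 of 22 elements and in YPS163 MATa in 9 of 9, against 12 of 22 in hap1D. These counts are descriptions, since frames of an element share sequence.

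The log-phase ratio plus the ethanol ratio of a wild strain, minus the ethanol ratio of DBY8268, gives the gap to DBY8268 that the arrays imply in ethanol, as a description that carries the values used in the choice. For long Ty2 frames it had a median of -4.30 for YPS163 and of -1.73 for M22, beside log-phase medians of -5.19 and -4.88. For long Ty1 frames the medians were -3.30 for YPS163 and -3.84 for M22, beside -5.40 and -6.68. For the short Ty2 frames the medians were -5.23 for YPS163, beside -4.36 in log phase, and -2.58 for M22, beside -4.42, so the implied gap in YPS163 was larger than the log-phase one. For short Ty1 frames they were -5.39 for YPS163 (9 frames), beside -5.95, and -7.54 for M22 (17 frames), beside -7.60. The implied gap was below 0 for every frame with the needed values in both strains. That follows from the choice, which held every log-phase mean below -4, while the largest ethanol difference from DBY8268 was 3.77, in M22. It is no separate result.

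In the time course, with 1 array per time and strain and no replicate check, the Ty2 frames of M22 were high from the start. The class median of the long Ty2 frames in M22 was 3.35 at 15 min, 4.66 at 30 min, 4.23 at 45 min and 4.26 at 60 min. In YPS163 it was 1.36, 2.17, 1.59 and 1.41, and in DBY8268 it was 0.10, 1.17, 0.62 and 1.22 at the same times. All but one of these 12 medians were above 0.5.

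Long Ty1 frames had medians of 1.05, 2.45, 2.67 and 2.39 in YPS163 at 15, 30, 45 and 60 min, and of 1.57, 3.03, 3.21 and 2.37 in M22. The M22 medians rest on 20, 25, 22 and 18 of the 26 frames, so the frames differ between times. At 60 min the M22 values ran from -1.39 to 4.56, with 13 of 18 above 0. The 7 frames of the upper log-phase range stood at 3.71 to 4.56 there. In DBY8268 the long Ty1 medians were -0.17, -0.04, 0.39 and 1.05, and short Ty1 frames there had -0.04, -0.09, 0.18 and 1.16. At 60 min all 65 frames were above 0 in DBY8268, at 0.89 to 2.02, against 22 of 65 on the same strain's time-course array at 30 min. That array is array 1 of the 30 min group. On arrays 2 and 3 of the group all frames with a value, 64 and 65, were above 0. Short Ty2 frames were high at 60 min in YPS163, with 4.54 for YLR410W-A and 3.58 for YFL002W-B, against 1.55 and 1.42 at 45 min. On that YPS163 array at 60 min the 65 frames lacked a value on 47.7% of spots, and short Ty1 frames on 89.3%.

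**Figure D4:**
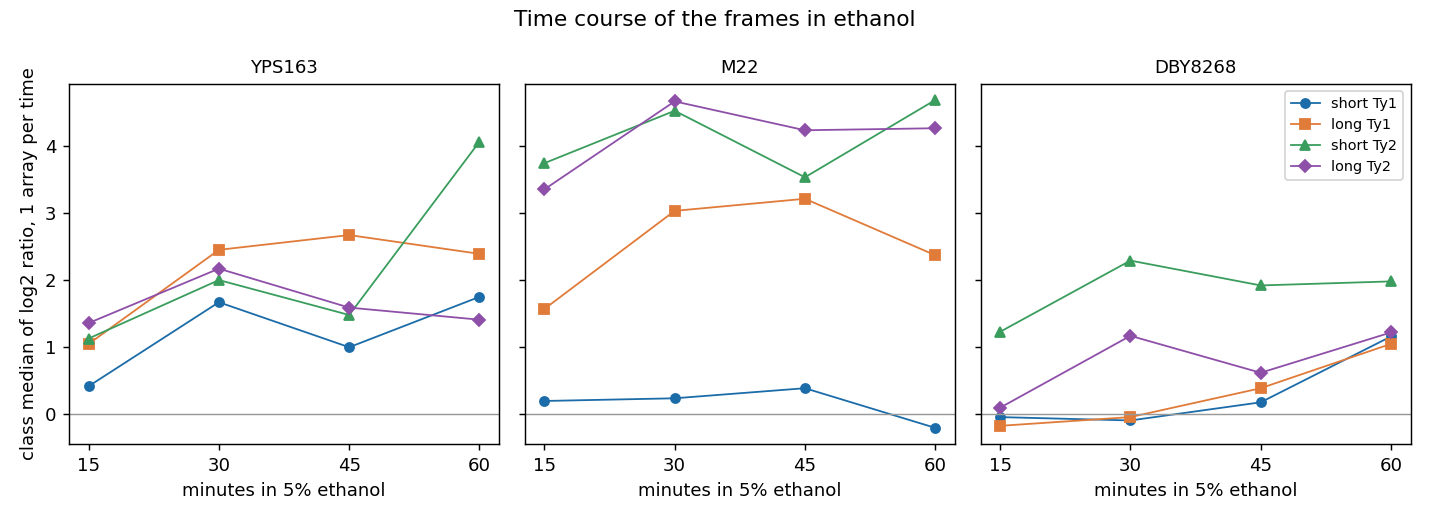
Class median of the log2 ratio (vertical axis) at 15, 30, 45 and 60 min in 5% ethanol (horizontal axis) in YPS163, M22 and DBY8268, with 1 array per time and strain and no error available. Each median covers only the frames with a value on that array, for long Ty1 in M22 20, 25, 22 and 18 of 26. Long Ty2 frames in M22 run from 3.35 at 15 min to 4.66 at 30 min, and both Ty1 classes in DBY8268 lie at -0.17 to 0.39 up to 45 min and near 1.1 at 60 min. The 30 min points are array 1, which in DBY8268 was lower for both Ty1 classes than arrays 2 and 3 (short Ty1 0.49 and 0.51, long Ty1 0.56 and 0.84).

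In msn2D, hap1D and YPS163 MATa most tested frames rose in ethanol. In msn2D 51 of 64 tested frames rose, against 21.0% of all 6138 rows tested. In hap1D 48 of 64 rose, against 26.8% of 6056 rows, and in YPS163 MATa 35 of 47 rose, against 24.5% of 5444 rows. None of the 65 fell, against 22.4% of all rows in msn2D and 27.7% each in hap1D and YPS163 MATa. Long Ty1 medians were 2.75 in msn2D, 1.01 in hap1D and 1.48 in YPS163 MATa, and long Ty2 medians were 2.44, 1.82 and 1.83. Short Ty1 frames rose in 15 of 27 in msn2D, 13 of 27 in hap1D and 2 of 14 in YPS163 MATa.

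YPR158C-D, a long Ty1 frame, gave 2.94, 3.30 and 2.97 in msn2D and 0.82, 1.51 and 0.96 in hap1D, against 1.44 and 1.64 in YPS163 MATa. YLR410W-A, a short Ty2 frame, gave 0.43, 0.97 and 0.29 in msn2D and 2.56, 1.73 and 1.73 in hap1D, against 1.75 and 0.73 in YPS163 MATa. Among these strains the Ty1 frame had its highest arrays in msn2D, but its mean of 3.07 there was near its mean of 2.80 in YPS163. The lowest of the Ty2 arrays among these strains were in msn2D, where 1 YPS163 MATa array lay within the msn2D range. YDR271C gave 2.51, 1.83 and 2.16 in msn2D and 1.09, 1.82 and 1.27 in hap1D, against 1.09 and 1.73 in YPS163 MATa.

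The msn2D difference depended on the unmutated strain it was set against. For msn2D minus YPS163 MATa, 11 of 47 tested frames were higher in msn2D, against 4.38% of all 5394 rows, and none was lower, against 4.38% again. All 11 were long Ty1 frames, among them YNL054W-B of the upper log-phase range. YER138C gave 2.90, 3.37 and 3.10 in msn2D, against 1.54 and 1.34 in YPS163 MATa, a difference of 1.68 ± 0.26 (SE; limma, adjusted p = 0.00033). YML039W gave 3.28, 3.35 and 2.89 in msn2D, against 1.49 and 1.37 in YPS163 MATa, a difference of 1.74 ± 0.53 with limma's adjusted p = 0.0467. The arrays of the groups did not overlap for either, but the YML039W call was lost in 9 of the alternative settings (adjusted p = 0.00942 to 0.622 over all of them).

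YOL103W-B, YPL257W-B, YAR009C and YPR158C-D differed by 1.67 ± 0.36, 1.62 ± 0.36, 1.58 ± 0.34 and 1.53 ± 0.31 (SE). The short Ty2 frames had differences of -0.68 ± 0.48 (SE) for YLR410W-A and -0.16 for YFL002W-B and did not pass. Of the 47, 3 were higher when array 1 of YPS163 MATa was left out and 7 when any other array of the contrast was. The count was 23 with array 3 of YPS163 MATa moved by 1 row and entered, 17 with the arrays of the contrast fitted alone, and 5 among frames with 3 log-phase values per strain.

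Against YPS163, the strain the titles name, 3 frames differed. In a test chosen after seeing the data, msn2D minus YPS163 in the same fit, 1 of 46 tested frames was higher in msn2D, against 8.55% of all 5253 rows, and 2 were lower, against 8.7%. The frame that was higher was the long Ty1 frame YJR027W, by 0.72 ± 0.24 (SE; limma, adjusted p = 0.0492). The frames that were lower were YNL284C-B, a long Ty1 frame, at -1.91 ± 0.32, and YLR410W-A, a short Ty2 frame, at -1.39 ± 0.43 (SE). The 26 long Ty1 frames had a median difference of 0.38, against 0.02 over all rows, and a median ethanol ratio of 2.75 in msn2D, against 2.54 in YPS163. YER138C, higher by 1.68 against YPS163 MATa, differed by 0.43 against YPS163, with adjusted p = 0.218 in limma. Of the 46, 12 had an unadjusted p under 0.05. The MSN2 deletion, the strain background and the set of arrays cannot be told apart in these values. The unchosen long Ty1 frame YGR038C-B had ethanol means of 2.07 in YPS163, -0.49 in msn2D, -0.25 in hap1D and -0.22 in YPS163 MATa. YNL284C-A, the short partner of YNL284C-B, had no value on the YPS163 arrays of this contrast and a value on every msn2D array. Some other unchosen frames were close, such as YDR261W-A at 1.77 in YPS163 and 1.68 in msn2D. Whether the array sets bear on the called frames was not tested.

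For hap1D minus YPS163 MATa, limma called 0 of 47 frames, against 0.0926% of all 5397 rows, and 2 of the 47 had an unadjusted p under 0.05. These were YFL002W-B, higher in hap1D by 1.13 ± 0.41 (SE), and YLR157C-B, at -0.53 ± 0.23 (SE). The set is 3 arrays against 2, and a miss does not show that the strains respond alike. The fit took no account of array numbers, although same-numbered arrays of these strains deviated together. The short Ty1 median on hap1D array 1 was 0.02, against 1.31 and 1.09 on arrays 2 and 3.

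Unstressed, the frames stood slightly higher in hap1D than in YPS163 MATa. All 64 tested frames had a mean log-phase ratio above 0, at 0.05 to 1.00 with a median of 0.56, against a median of 0.00 over all rows. Of these, 9 were higher in hap1D by the test, against 1.32% of all 6059 rows, and none was lower, against 1.67%. They were YML040W, a short Ty1 frame, and the long Ty1 frames YBL005W-B, YER138C, YJR027W, YJR029W, YLR157C-B, YOL103W-B, YPL257W-B and YPR158C-D.

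YER138C gave 1.04, 0.75 and 0.87 in that comparison, a mean of 0.89 ± 0.15 (SD, n = 3) and a 1.85-fold difference (limma, adjusted p = 0.00276). The count was 1 to 3 when 1 of the 3 arrays was left out, 2 with these arrays fitted alone, 1 or 3 with array 3 of YPS163 MATa in ethanol entered as deposited or moved, and 52 with arrays scaled to a common spread. Long Ty2 frames had lower ratios, at 0.25 to 0.39, and none passed.

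Of 37 genes known for Ty1 transcription or as Ty1 host factors, those measured changed in both directions in ethanol. In YPS163 7 rose and 11 fell of 32 tested, where 30.5% of all rows rose and 30.0% fell. In M22 6 rose and 14 fell of 32, beside 32.2% and 29.8% of all rows, and in DBY8268 6 rose and 13 fell of 33, beside 28.6% and 31.1%. RPC40, a shared subunit of RNA polymerases I and III that takes part in Ty1 targeting, fell by 1.66 ± 0.24 in YPS163, 1.94 ± 0.23 in M22 and 1.92 ± 0.10 in DBY8268 (SD, n = 3), and RAP1, which encodes a general regulatory factor, fell by 2.82 ± 0.79, 1.99 ± 0.23 and 1.84 ± 0.29. TEC1, an activator of Ty1 transcription together with STE12, rose by 1.53 ± 0.18 in YPS163 (SD, n = 3), where RPC53 fell by 1.25. In msn2D TEC1 stood at 0.16 ± 0.74 (SD, n = 3; limma, adjusted p = 0.652), while it fell by 2.03 ± 0.26 in hap1D (n = 3) and by 2.0 ± 0.36 in YPS163 MATa (SD, n = 2). In M22 the debranching enzyme gene DBR1 rose by 1.52 and GCR1, an activator of glycolytic genes, by 1.35, and in DBY8268 GCN4 fell by 1.69 and STE12 by 1.30.

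Between strains, 3 of these genes were higher and 2 lower of 32 for YPS163 minus DBY8268, beside 10.5% and 5.58% of all rows, with TEC1 higher by 1.71 ± 0.36 (SE; limma, adjusted p = 0.00242). For M22 minus DBY8268 4 of 32 were higher, the largest of them DBR1 by 0.77 ± 0.21, and none was lower, beside 9.42% and 2.88%. TEC1 was the 1 gene of 32 that differed for YPS163 minus M22, by 2.03 ± 0.36, beside 2.15% of all rows higher and 4.17% lower. TEC1 was higher in msn2D than in YPS163 MATa, by 2.17 ± 0.40, and lower in msn2D than in YPS163, at -1.37 ± 0.36 (SE; limma, adjusted p = 0.0119). None of 34 passed for hap1D minus YPS163 MATa and none of 36 for hap1D over YPS163 MATa in log phase. Whether these genes bear on the Ty frames was not tested.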

How the data were processed

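The analysis started from the single table that the authors deposited for 36 arrays of 2 channels. The deposited values were taken as log2 ratios that the authors made from the 2 channels of each array, because they have both signs and array medians near 0. How spots were corrected, filtered and normalised is not given in the sources used here. Systematic names were matched to the NCBI RefSeq yeast gene table (assembly R64): 5830 of 6295 rows and 64 of the 65 frames matched. That table names no products: Ty family and frame were assigned by hand from known systematic names, coding lengths and shared starts. A model with a mean for each of 9 groups was fitted over 26 arrays with lmFit and moderated with eBayes (limma 3.58.1, R 4.3.3). Rows needed 2 values per group, and Benjamini-Hochberg adjustment ran over all rows of each of the 12 contrasts. The fit was tested on simulated data. The frames, gene list and tests were chosen with earlier results of these data known.

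Named were all 65 frames, the extremes of each strain among frames with 3 values (6 highest and 6 lowest in DBY8268, 3 and 3 in M22 and YPS163), up to 6 called frames per difference and direction, and the 3 nearest rows on either side of the threshold. Named too were the 3 unchosen Ty frames highest in log phase, the deletion targets, ASP3 copies and the 4 largest called genes of the Ty1 list per strain. Other genes and the long Ty1 ranges were chosen after their values were seen. Same-numbered ethanol arrays of YPS163, M22 and DBY8268 deviated together (correlation of deviations 0.22 to 0.648 in 9 of 9 pairs, against -0.537 to 0.102 for different numbers). The numbers may thus pair those samples, but the main fit took no account of them. What same-numbered arrays share, beyond the exchanged dyes of the arrays numbered 2, was not examined. Between hap1D and YPS163 MATa, same-numbered arrays also deviated together (0.665 and 0.543, against -0.665 to 0.294 for different numbers). With 2 YPS163 MATa arrays, whose deviations mirror each other, that is weak ground for a pairing. In pairs that include msn2D they did not (-0.246 to 0.377). Alternatives were array scale, centring, complete values, fewer arrays, the replicate block, the misplaced column, leaving out arrays and other thresholds. Setting msn2D against YPS163 was added after seeing the data, because the titles and the genotype label of the msn2D arrays name different backgrounds. The number of arrays limits the precision.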

Additional observations from a re-analysis of the deposited data

Results flagged for a closer look

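Differences of the ethanol ratio between strains, tested in limma with adjusted p under 0.05, involved 36 frames for M22 minus DBY8268, 34 for YPS163 minus DBY8268, 21 for YPS163 minus M22 and 11 for msn2D minus YPS163 MATa. For M22 minus DBY8268 the largest were those of YML045W (3.77), YPR158C-D (3.63), YHR214C-B (3.54), YDR261C-D (3.53), YNL054W-B (3.50) and YDR098C-B (3.49). For YPS163 minus DBY8268 they were those of YBR012W-B (2.41), YML039W (2.40), YMR046C (2.39), YLR035C-A (2.37), YBL005W-B (2.32) and YHR214C-B (2.31). Both sets of differences use the same DBY8268 arrays, on which array 1 was the lowest for Ty1 frames.

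For YPS163 minus M22 the difference was positive for YBL005W-B (1.35) and lowest for YDR271C (-3.14), YFL002W-B (-2.74), YLR410W-A (-2.70), YLR227W-B (-2.43), YFL002W-A (-2.41) and YDR210W-B (-2.41). For msn2D minus YPS163 MATa it was largest for YML039W (1.74), YER138C (1.68), YOL103W-B (1.67), YPL257W-B (1.62), YAR009C (1.58) and YPR158C-D (1.53). The YML039W difference lost its call in 9 alternatives, and against YPS163, chosen as the other unmutated strain after seeing the data, all 6 lost theirs. What lies behind these differences was not tested.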

How the results depend on the processing

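The ethanol counts for YPS163, M22, msn2D, hap1D and YPS163 MATa stayed within 1.5 times of the values reported under every alternative run, and no named result reversed its sign. With members taken below -5 in log phase, 13 frames rose in DBY8268 and 13 differed for YPS163 minus M22. With arrays scaled to a common spread, 23 frames differed for M22 minus DBY8268, 7 for YPS163 minus DBY8268 and 52 for hap1D over YPS163 MATa in log phase; the cause was not tested. For msn2D minus YPS163 MATa the count was 17 with the arrays of the contrast alone, 1 with the replicate block, 23 with array 3 of YPS163 MATa moved by 1 row, 5 among frames with 3 values per strain, 3 to 7 when 1 array was left out, and 3 (1 higher and 2 lower) against YPS163 in place of YPS163 MATa, a setting chosen after seeing the data. For hap1D in log phase it was 2 with these arrays alone, 1 and 3 with array 3 of YPS163 MATa as deposited and moved, 4 among frames with 3 values, and 1 to 3 with 1 array left out. The replicate block moved no count for YPS163, M22 and DBY8268 by over 1.5 times and could not be fitted in log phase. The numbers did not pair msn2D with the other arrays, while same-numbered arrays of hap1D and YPS163 MATa deviated together. The rule itself gave 52 frames with 3 values required, 56 below -5, 72 below -3, 73 after scaling and 57 to 67 with 1 array left out. Over the named frames, 515 alternative values kept their call, 40 lost it and 1 gained it. Missing values limit the short Ty1 frames, and near-identical copies limit all Ty frames.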
